A study of Melitaea cinxia with 174 samples.

Results

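The genes described here are 150 of the 16667 gene models of the Glanville fritillary butterfly (Melitaea cinxia), chosen because their mean level in the adult thorax was higher in ÅL, the population of the Åland Islands, than in each of 3 other populations. Levels were taken as log2(normalized count + 1). A gene model qualified when its ÅL mean was 2 or more and when its gap, the ÅL mean minus the highest of the 3 other means, exceeded the range of those 3 means. Of 6117 gene models with an ÅL mean of 2 or more, 383 (6.26%) qualified, and the 150 with the largest gap form the set. Since the population means chose the members, their levels and gaps are given as a description, with no test. The rule is not passed in ÅL alone: applied to the other populations in turn, it was met by 463 gene models for UP, 751 for SA and 216 for ÖL.

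The 174 butterflies were collected as diapausing larvae from wild populations in northern Europe, were reared singly in the same conditions on the same host plant, with no treatment named in the labels. The 49 ÅL individuals (23 females, 26 males) and the 20 UP individuals from coastal Uppland (11 females, 9 males) represent fragmented landscapes. The 63 SA individuals from Saaremaa (28 females, 35 males) and the 42 ÖL individuals from Öland (15 females, 27 males) represent continuous landscapes. Each individual gave 1 library of thorax RNA, anchored at the poly-A tail, and the study's methods state that larvae of a family were not sequenced together.

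The thorax holds the flight muscle, and with it fat body, epidermis with its cuticle, nerve tissue and blood cells. The fat body makes hexamerins, storage proteins that butterflies lay down as larvae and use up while the adult is built, and it also secretes antimicrobial peptides when the Toll or Imd immune pathways are active. Cuticular proteins of the RR families carry a chitin-binding domain and are secreted by the epidermis, mostly around moults. In such bulk samples, a higher share of cells of a type and more RNA per cell cannot be told apart. The 3 described muscle gene models were abundant in all 4 populations: troponin C, a calcium sensor of muscle, had means between 8.11 and 10.21 on the log2 scale in its 2 models, and disorganized muscle protein 1 (MCINX001483) between 9.91 and 10.80.

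Of the 49 ÅL libraries, 10 were set apart (7 males and 3 females: ÅL individuals 1, 2, 9, 13, 14, 15, 18, 27, 28 and 32). The cut was a sum of normalized counts above the highest of the 125 individuals of the other populations, 1483000. Sums of the 10 lay between 1503297 and 2495518. The highest sum of the other 39 ÅL libraries was 1480918, so no clear break marks the cut. At an equal depth of 1000000 counts the 10 libraries held between 6940 and 8671 detected gene models, with a median of 7836. Among libraries that reached this depth, the range was 7558 to 10482 in UP, SA and ÖL (median 9623). It was 7889 to 10101 in the other ÅL libraries, so the ranges overlapped. The 10 most abundant genes took a median of 32.9% of the counts in the libraries set apart, against 23.6% in UP, SA and ÖL. In addition, 3 individuals had levels of 50 sex-biased genes that lay mostly with the other sex (ÅL male 28, ÖL male 15 and SA female 9). The median gap of the members, their choice, the main groups and the sex counts in ÅL are given below with and without the 10 libraries. For some single genes the gap is given with all libraries only. What made the 10 libraries differ was not tested. The study set aside a few ÖL and UP individuals for their genotypes, among them a pair with seemingly exchanged labels. The labels used here do not show which these were, so all 174 individuals were kept under their labelled population. Total counts ranged from 442717 to 7742394 per individual, and from 630555 to 7059826 in ÅL.

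The gaps of the 150 genes ranged from 0.39 to 1.87 with a median of 0.57 on the log2 scale, beside a median of -0.25 over the 6117 gene models. Of the members, 21 had a gap above 1, 82 lay between 0.5 and 1, and 47 were at 0.5 or less. The last members inside the limit were MCINX007871, MCINX011562 (the beta subunit of the Sec61 channel, through which secreted proteins enter the endoplasmic reticulum) and MCINX005241, with gaps of 0.40, 0.40 and 0.39. Without the 10 libraries these gaps were 0.09, 0.24 and 0.03. The first genes outside it were MCINX005508 (described as fibulin-like), MCINX016171 and MCINX011792, with gaps of 0.39, 0.39 and 0.39. The next highest population was UP for 64 members, ÖL for 53 and SA for 33. The gap was above 0 in females and in males taken alone for 147 of the 150 members, beside 775 of the 6117 gene models (12.7%). The choice of members on the same individuals, both sexes together, largely fixed this count, so it does not show agreement between the sexes. With the rule applied to females alone, 81 of the 150 were chosen again, and with males alone 95.

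A member score was computed for every individual as the mean over the 150 genes of the centred log2 level. The choice of members on these same individuals fixes its direction and also widens the separation of ÅL, so the score is no independent evidence. The score ran from -0.14 to 1.80 in ÅL with a median of 0.55, from -0.58 to 0.15 in UP, from -0.85 to 0.20 in SA and from -0.74 to 0.20 in ÖL. In ÅL, 40 of the 49 individuals lay above the highest individual of the other populations, namely all 10 of the libraries set apart and 30 of the other 39, so the groups overlapped in 9 ÅL individuals. For single genes, the number of ÅL individuals above the highest other individual had a median of 7 per member, reached 22 of 49 at most, and was 0 for 9 members. ÅL also had the largest spread between individuals of all populations for 125 of the 150 members (83.3%), beside 61.3% of the 6117 gene models. Without the 10 libraries these shares were 67.3% and 43.96%.

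**Figure D1:**
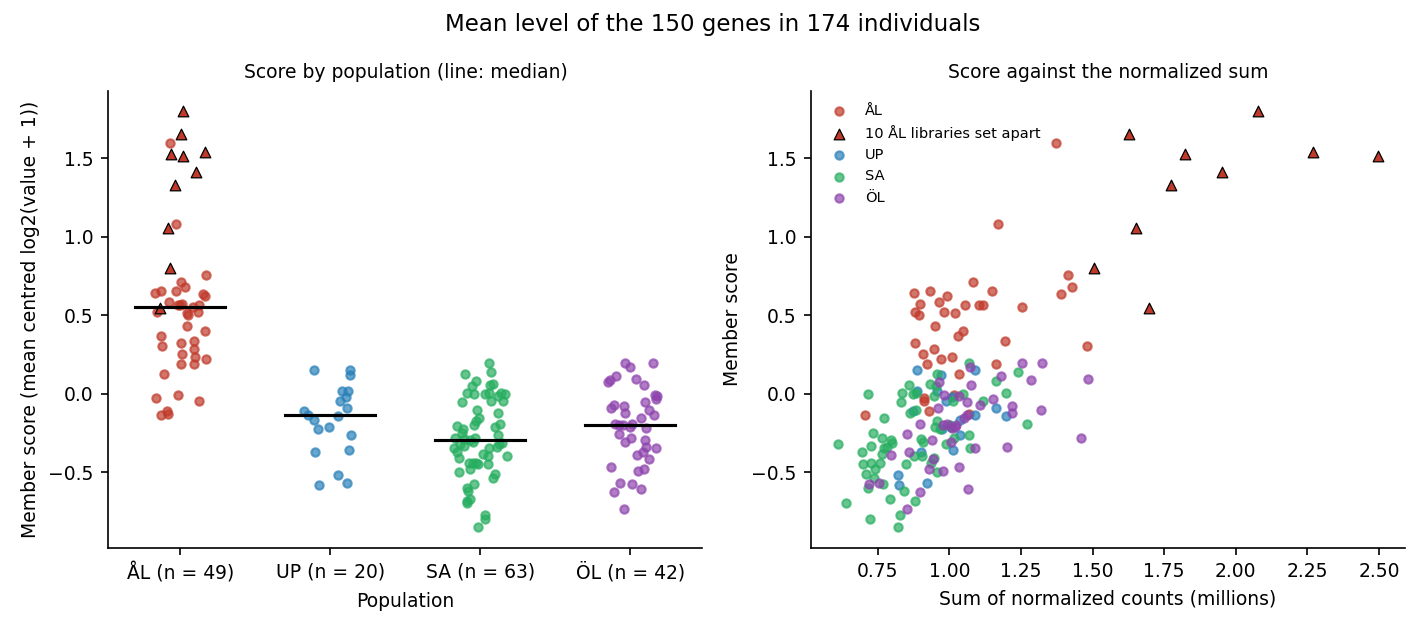
Member score (mean centred log2(normalized count + 1) over the 150 genes) of each of 174 individuals, by population on the left with the median as a line, and against the sum of normalized counts on the right. Triangles mark the 10 ÅL libraries set apart, which all lie above the highest score of the other populations, 0.20, as do 30 of the other 39 ÅL individuals. The genes were chosen for their higher ÅL mean in these same individuals, so the separation follows in part from that choice.

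The 10 libraries carried a good part of the list. Without them, 99 of the 150 members were again among the 150 genes with the largest gap, the median gap of the members fell from 0.57 to 0.39, and for 47 members the gap fell at least to 0.5 of its full value. The gap of 3 members turned negative (MCINX015555, MCINX002526 and MCINX000471), and that of 21 members became larger. To see which members depended on them, members were grouped by how alike their levels ranked over the 49 ÅL individuals (average linkage, Spearman's rho of 0.5). This placed 85 members in 9 groups of 3 or more. The points of these correlations share libraries and scaling, so they are a description.

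The largest group held 46 mostly abundant genes, with a median ÅL mean of 8.36 on the log2 scale. Their levels ranked with the normalized sum of the library (median rho of 0.68 over 49 individuals, and 0.51 over the 39), which itself contains their counts. Without the 10 libraries their median gap fell from 0.51 to 0.20, and 17 of the 46 remained among the 150 genes with the largest gap. Of the 104 members outside this group, 82 remained, and their median gap went from 0.64 to 0.52. The groups themselves depended on these libraries: over the 39 individuals the largest group held 27 genes, all 27 of them among the 46.

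**Figure D2:**
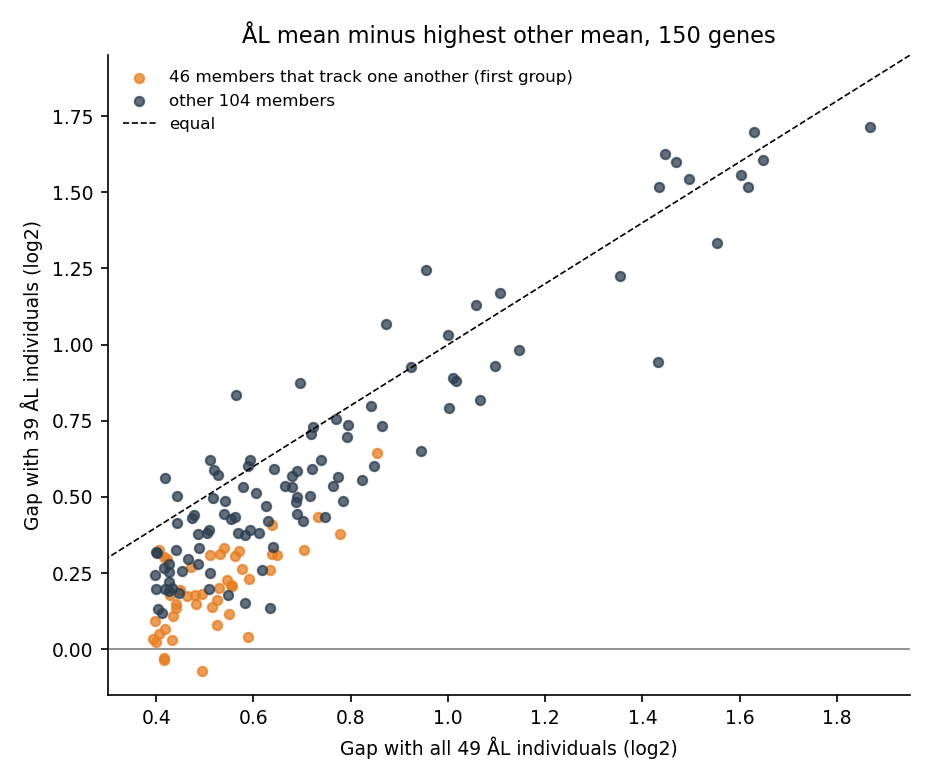
Gap of each of the 150 genes (ÅL mean minus the highest other mean, log2) with all 49 ÅL individuals on the x axis and with 39 on the y axis, the 10 libraries set apart being left out. The 46 genes of the largest group (orange) lie mostly far below the dashed line of equality with a median of 0.20 on the y axis, while most genes with a gap above 1 lie near it.

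Among the genes with the largest gaps were the hexamerins, the storage proteins of the fat body. Of the 4 storage protein gene models with a description, 2 were members. These descriptions come from genes that the study listed as higher in fragmented landscapes, ÅL among them, so that all 4 had their highest mean in ÅL follows in part from the list, and further hexamerins of the species were not analysed here. The level of Hexamerin 2 MCINX010010 in ÅL ranged from 0 to 1032 normalized counts with a median of 3.80. Its medians elsewhere were 0.615 in UP, 0.276 in SA and 0.561 in ÖL, but the highest value of all was that of the female UP individual 15, 1145 normalized counts. No ÅL individual therefore exceeded all others, and 8 ÅL individuals had no read of the gene. ÅL female 8 alone held 42.6% of the summed ÅL level, and the gap was 1.63 with and 1.48 without it. The second hexamerin, MCINX015567, ranged from 0 to 140.0 normalized counts in ÅL with a median of 2.58, and 3 ÅL individuals lay above the highest other individual at 74.9.

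Cuticular protein genes showed a similar spread. Of 21 described cuticle protein gene models, 3 were members (14.3%, beside 39 of 1525 or 2.56% of all described gene models), and 19 of the 21 had their highest mean in ÅL, as had 392 of the 1525 (19 and 330 without the 10 libraries). These descriptions come from genes that the study listed from these same individuals, mostly for a difference between landscapes that includes ÅL, so the counts are no independent evidence. Cuticular protein 3 of the RR-2 family (MCINX000211) ranged from 0 to 175.1 normalized counts in ÅL with a median of 6.10, and 13 ÅL individuals were at 0. In the other populations its medians were 1.33 (UP), 0.362 (SA) and 0.796 (ÖL), and the highest value was 25.7. In ÅL, 14 individuals exceeded that value while 16 were at or below the median of the others, so the ÅL butterflies were spread over the whole range.

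A further RR-2 gene, cuticular protein RR-2 motif 83 (MCINX013201), had an ÅL median of 16.4 normalized counts and medians of 4.47 in UP, 2.87 in SA and 3.87 in ÖL. In ÅL, 10 individuals lay above the highest other value of 51.4, and 4 lay at or below the median of the others. The third, the putative cuticle protein CPH43 (MCINX015103), depended more on the libraries set apart: 8 of the 11 ÅL individuals above all others were among them, and its gap went from 1.43 to 0.94 without them. Cuticular protein 3 grouped with both hexamerins and 4 undescribed genes (MCINX011331, MCINX002866, MCINX012618 and MCINX010096) in a set of 7, with a rho of 0.82 between it and Hexamerin 2 MCINX010010 over the 49 ÅL individuals. The median gap of this set was 1.47 with and 1.56 without the 10 libraries, and all 7 genes stayed among the first 150. Their rho with the normalized sum of the library lay between -0.37 and -0.06.

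The gene with the largest gap, MCINX006606, had no description in the sources used here and belonged to another set of 9 genes, with cuticular protein RR-2 motif 83 as its only described member. Its median was 16.9 normalized counts in ÅL, with individuals from 0 to 173.8, against 1.66 in UP, 2.34 in SA and 2.42 in ÖL. In ÅL, 6 individuals exceeded the highest other individual, UP female 15 at 96.5. The same UP female held the highest value outside ÅL for MCINX006003, MCINX000211 and both hexamerins. MCINX006003 of the same set had an ÅL median of 41.1 normalized counts and medians of 15.0, 7.20 and 7.36 in UP, SA and ÖL, and 13 ÅL individuals lay above the highest other value of 110.8. The levels of both genes ranked alike over the ÅL individuals (rho of 0.89, and 0.91 without the 10 libraries). All 9 genes remained among the first 150 without these libraries, with a median gap of 0.79. This set and that of the hexamerins were not separate over the 39 individuals: 5 of the 9 genes, MCINX006606, MCINX006003 and MCINX013201 among them, then grouped with all 7 of the other set, and the remaining 4 formed a group.

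**Figure D3:**
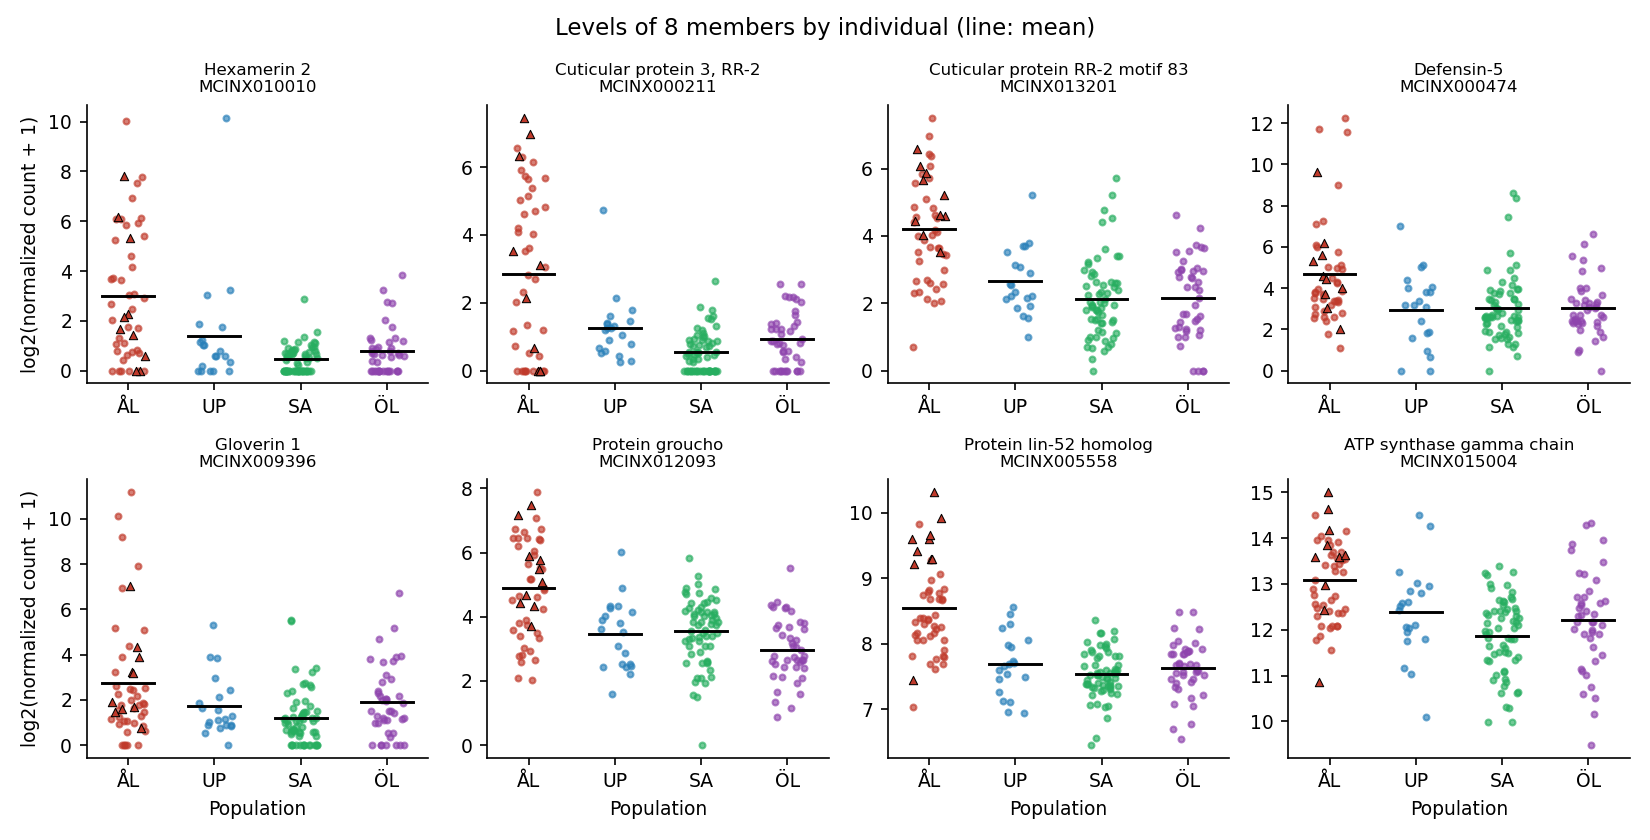
Levels of 8 members, log2(normalized count + 1), in each of 174 individuals by population, with the population mean as a line and the 10 ÅL libraries set apart as triangles. The hexamerin, cuticular protein 3 and gloverin 1 are high in some ÅL individuals and near 0 in others, while cuticular protein RR-2 motif 83, lin-52 and ATP synthase gamma are higher in most ÅL individuals than the means of the other populations.

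Antimicrobial peptides, short secreted proteins that kill bacteria and fungi, were the described list with the largest share of members. Of 7 described gene models, 4 were members (57.1%), beside 39 of 1525 (2.56%) of all described gene models. All 7 had their highest mean in ÅL, beside 392 of the 1525 (25.7%). As for the cuticle genes, the descriptions come from the study's own lists, so these counts are no independent evidence. Defensin-5 (MCINX000474) ranged from 1.11 to 4953 normalized counts in ÅL, with a median of 13.8, against medians of 8.04 in UP, 5.25 in SA and 6.08 in ÖL. In ÅL, 5 individuals exceeded the highest other individual, at 392.3 in SA. ÅL female 5, male 35 and female 4 had 4953, 3316 and 3062 normalized counts, together 82.5% of the ÅL sum.

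The same 3 butterflies led the other peptides. For gloverin 1 (MCINX009396), a peptide class known from moths and butterflies, female 5 reached 2325 normalized counts, 48.97% of the ÅL sum, while the ÅL median was 2.53. For cecropin 4 and 5 (MCINX012360), a peptide that opens bacterial membranes, male 35 reached 2604 and female 5 reached 2336 normalized counts, and for lebocin 4 (MCINX011164), a proline-rich peptide, female 5 reached 1768 and male 35 reached 1021. How far the gap rested on them differed between the genes. The population medians of the cecropin gene were 3.29 in ÅL and 3.41 in ÖL, so its gap computed from medians was -0.04. Computed in that way, the gap was 0.71 for defensin-5, 0.58 for lebocin 4 and 0.29 for gloverin 1. Leaving out individuals 5 and 35 together, a choice made after seeing the values, lowered the gap from 1.65 to 1.34 for defensin-5, from 0.84 to 0.51 for gloverin 1, from 0.70 to 0.34 for the cecropin gene and from 0.59 to 0.24 for lebocin 4. Female 4 stayed in, with 3062, 594.3, 1122 and 505.1 normalized counts in the same order, so these lowered gaps still include her values. None of the individuals 5, 35 and 4 was among the 10 libraries set apart, and without those 10 all 4 peptide genes stayed among the first 150.

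LYZ (MCINX011858) is described only by that symbol, the name used for lysozyme, an enzyme that cuts bacterial cell walls. Its ÅL median of 24.3 normalized counts lay above those of UP (9.94), SA (6.31) and ÖL (5.33). Its highest values were again in male 35 (2547) and female 4 (1400.5), and 4 ÅL individuals exceeded the highest other individual, at 392.1 in SA. There were 8 other described immune gene models, among them 2 invertebrate lysozymes, a peptidoglycan recognition protein and serine protease inhibitors. Of these 8, 0 were members, beside 2.56% of all described gene models, and 3 had their highest mean in ÅL (37.5%, beside 25.7%). Without the 10 libraries the latter shares were 25% and 21.6%. A list of 8 is too short to tell 0 members from a share of 2.56%.

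**Figure D4:**
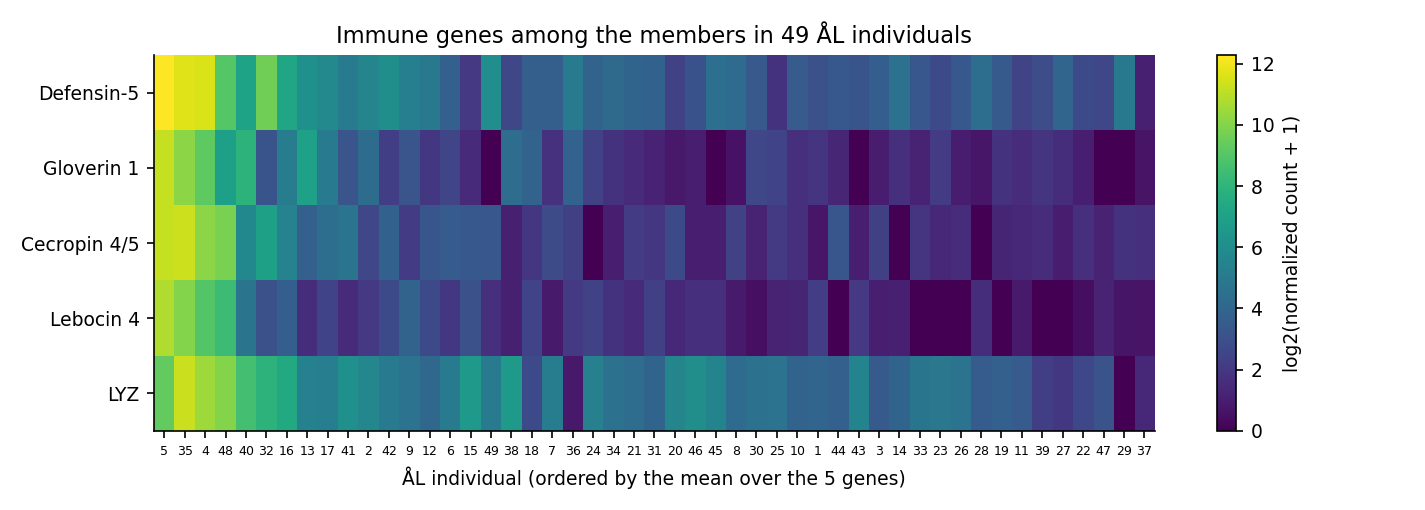
Levels of 4 antimicrobial peptide genes and LYZ, log2(normalized count + 1) as colour, in the 49 ÅL individuals ordered by the mean over the 5 genes. The first columns, individuals 5, 35, 4 and 48, are the brightest by that mean, and most of the remaining columns are dark for gloverin, cecropin and lebocin.

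Members with roles in signalling and gene regulation were few. Groucho (MCINX012093), a co-repressor that silences targets of Notch and Wnt signalling in flies, had an ÅL median of 28.9 normalized counts with individuals from 3.06 to 235.2. Its medians were 10.9 in UP, 12.4 in SA and 5.81 in ÖL, and 14 ÅL individuals lay above the highest other individual at 63.5, only 2 of them from the libraries set apart. Of the gene models that the study assigned to fly pathways, 1 of 35 for Notch was a member (groucho), and 1 of 93 for Wnt and 1 of 95 for Hedgehog, in both cases MCINX007798, described as lipoprotein receptor-related protein 6, a co-receptor for Wnt ligands in vertebrates. These shares of 2.86%, 1.08% and 1.05% stand beside 150 of 16667 (0.9%) for all gene models. The backgrounds are unlike, since the ÅL mean of 2 that the rule needs was reached by 17 of the 35, 55 of the 93 and 42 of the 95. Over all gene models it was reached by 6117 of 16667. With 1 member per pathway, no excess can be read from these shares. The gap of MCINX007798 went from 0.59 to 0.23 without the 10 libraries.

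The lin-52 homolog (MCINX005558), a subunit of a complex that represses cell cycle genes in worms and flies, was the member with the most ÅL individuals above all others. Its ÅL median was 334.9 normalized counts with individuals from 129.7 to 1273, beside 202.9 in UP, 182.9 in SA and 201.7 in ÖL. In ÅL, 22 of the 49 individuals exceeded the highest other individual at 375.2, and 9 of these were libraries set apart. It belonged to the group of 46 and had the largest gap of that group, 0.86 with and 0.64 without the 10 libraries. MBF2 (MCINX015257), the name of a transcriptional co-activator first found in the silk moth, had a gap of 0.75, and ÅL female 5, with 448.3 normalized counts, again held the highest value. Its gap was 0.43 without the 10 libraries. A putative inositol polyphosphate phosphatase (MCINX011758) had an ÅL median of 13.01 normalized counts, against 7.39 in UP, 4.51 in SA and 6.23 in ÖL, yet its highest value, 84.5, was in ÖL.

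Of the described members, 3 with a part in cytoplasmic protein synthesis, chosen after their values were seen, were in the group of 46. Elongation factor 1 delta (MCINX003715), a subunit of the exchange factor that recharges elongation factor 1 alpha with GTP, had medians of 392.9 normalized counts in ÅL, against 310.5 (UP), 248.8 (SA) and 255.6 (ÖL). Of its 16 ÅL individuals above all others, 8 were libraries set apart. Ribosomal protein S5 (MCINX007504) and the putative 60S ribosomal protein L30 (MCINX001328) were in the same group, and their gaps went from 0.63 to 0.26 and from 0.51 to 0.31 without those libraries.

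Mitochondrial genes were represented by 4 of 41 described gene models (9.76%, beside 2.56% of all described gene models). Of the 41, 16 had their highest mean in ÅL (39%, beside 25.7%). The median gap of the list was -0.32, as was that of all described gene models. As the descriptions come from the study's own lists, these counts are no independent evidence either. ATP synthase gamma (MCINX015004), the rotating shaft of the enzyme that makes ATP, was the most abundant member, with an ÅL mean of 13.08 on the log2 scale. The ÅL median was 9769 normalized counts, beside 5656 for UP, 4007 for SA and 4828 for ÖL, and only 2 ÅL individuals lay above the highest other value, so the populations overlapped widely. The alpha subunit of the electron transfer flavoprotein (MCINX009517), which passes electrons from fatty acid oxidation to the respiratory chain, had medians of 307.2, 178.4, 135.7 and 163.0 in the same order. It varied almost in parallel with its neighbour in number, MCINX009516, a 6-pyruvoyltetrahydropterin synthase of the pathway to biopterin cofactors (rho of 0.95 over 49 ÅL individuals), and the counting does not show whether reads of adjacent models were kept apart. The mitochondrial ribosomal proteins L48 (MCINX000256) and L43 (MCINX014454) had gaps of 0.44 and 0.49.

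The remaining lists gave few members. Troponin C isoform 1 (MCINX015570) was the only member among 3 described muscle gene models, with medians of 1152 normalized counts in ÅL, against 901.5 (UP), 727.1 (SA) and 926.5 (ÖL), and its gap went from 0.43 to 0.22 without the 10 libraries. Disorganized muscle protein 1 (MCINX001483) had its lowest mean in ÅL, with a gap of -0.90, and of -0.43 without the 10 libraries. The ecdysteroid-regulated 16 kDa protein (MCINX011750) was 1 of 7 hormone-related gene models, with medians of 69.4, 52.7, 45.2 and 46.4 normalized counts in the same order, and neuroguidin (MCINX002948), a regulator of translation known from vertebrates, was 1 of 12 in the sensory and neural list, with a gap of 0.42. Of 22 described detoxification enzymes, 12 digestive proteases, 9 folding and secretion proteins and 4 transposable elements, 0 were members, beside 2.56% of all described gene models. Of the 150 members, 39 had a description in the part of the study's supplementary tables read here and 111 had none.

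Sex was not a term of the rule, and males and females were compared within populations. The ÅL values that chose the members also enter this comparison, and the 10 libraries set apart, which raised many gaps, are mostly male: in the group of 46 the median gap was 0.69 in males and 0.29 in females. The ÅL counts below are therefore not independent of the choice of members. In ÅL, 41 of the 150 members differed between the sexes (edgeR quasi-likelihood F-test, FDR<0.05 over 8976 genes), beside a background of 13.2% of all genes tested. The direction was uneven: 38 were higher in males, with a background of 7.2%, and 3 were higher in females, with a background of 6.03%. Of the 41 genes, 28 belonged to the group of 46, and all 28 were higher in males. The libraries set apart held 7 males and 3 females, and without them 27 members were called, 20 higher in males (background 5.1%) and 7 higher in females (background 4.93%). With the log2 TMM factor of the library as a covariate, 13 members were higher in males (background 5.57%) and 9 in females (background 4.7%).

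In UP, SA and ÖL together, 21 of the 150 members differed between the sexes, with a background of 15.1%. Of these, 17 were higher in males (background 8.22%) and 4 in females (background 6.86%). With the TMM factor as a covariate, 12 were higher in males (background 10.1%) and 23 in females (background 8.16%), so the balance of directions changed with this covariate. Normalized sums of the libraries tended to be higher in males than in females in SA and ÖL. Sex and scaling therefore cannot be told apart by this covariate, and the cause of the change was not tested. Of the members, 10 (6.67%) were called both in ÅL and in the other populations, each with the same sign, beside 541 of the 8976 genes tested (6.03%). These 10 were 24.4% of the 41 members called in ÅL. Over all genes tested, 45.9% of the 1187 genes called in ÅL were also called in the other populations.

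Of the members higher in ÅL males, ATP synthase gamma (MCINX015004) ranged from 5528 to 32842 normalized counts in males with a median of 12715, and from 1857 to 13371 in females with a median of 5296. The sexes overlapped. Its male minus female difference was 1.28 ± 0.20 (SE) on the log2 scale in ÅL (edgeR FDR of 2.7e-07) and 1.29 ± 0.14 in the other populations (FDR of 6.4e-14). The undescribed MCINX004547 and MCINX002089 of the group of 46 were also higher in males both in ÅL (1.44 ± 0.19 and 1.12 ± 0.16) and elsewhere (1.13 ± 0.14 and 0.80 ± 0.11). These 3 genes passed the threshold in ÅL in all 12 alternatives run, the omission of the 10 libraries among them.

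Of the members higher in ÅL females, MCINX006619, with no description in the sources used here, was the clearest. It ranged from 14.5 to 343.4 normalized counts in the 23 females with a median of 73.9, and from 0 to 130.0 in the 26 males with a median of 6.73. The difference was -2.13 ± 0.33 in ÅL (edgeR FDR of 2.2e-07) and -2.67 ± 0.26 in the other populations (FDR of 1.1e-16). Hexamerin 2 MCINX010010 had a difference of -2.62 ± 0.57 in ÅL (FDR of 0.000332), with a median of 6.57 normalized counts in females and 3.24 in males. That value leaned on single females: without ÅL female 8 it was -1.68 (FDR of 0.0266), and in the other populations the difference of -2.93 ± 0.54 became -1.06 (FDR of 0.124) without UP female 15. In ÅL the difference lay between -2.78 and -1.65 over 12 alternatives and passed the threshold in 11. In the other populations it lay between -3.09 and -0.75 over 11 alternatives and passed in 9. The third, MCINX009203, had a difference of -1.01 ± 0.30 (FDR of 0.0115) and passed the threshold in 10 of 12 alternatives. It was not called by limma-voom (-0.62, FDR of 0.144) or with ÅL alone in the fit (-0.97, FDR of 0.161).

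The sex difference of ÅL departed from that of the other populations in 3 members (edgeR, FDR<0.05), beside a background of 0.479% of the genes tested. In 2 of them the ÅL difference lay further toward males (background 0.167%) and in 1 toward females (background 0.312%). Elongation factor 1 delta (MCINX003715) had a male minus female difference of 0.95 ± 0.15 in ÅL and 0.22 ± 0.11 elsewhere, and the difference between these was 0.73 ± 0.18 (FDR of 0.0292). The undescribed MCINX013975 had 0.96 ± 0.19 in ÅL and 0.06 ± 0.13 elsewhere (FDR of 0.0324 for the difference). Both calls were lost without the 10 libraries: the difference of MCINX003715 was then 0.43 (FDR of 0.390), while that of MCINX013975 was 0.72 (FDR of 0.105) and lay between 0.71 and 0.94 in all 11 alternatives. MCINX004198 had -0.53 ± 0.21 in ÅL and 0.56 ± 0.15 elsewhere (FDR of 0.0180 for the difference), but ÅL female 5, with 2744 normalized counts against an ÅL female median of 151.5, carried it: without that individual the FDR was 0.323. Limma-voom called 0 of the 150 members (29 at an unadjusted p under 0.05), beside 1 of all 8976 genes, and DESeq2 called 4.

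**Figure D5:**
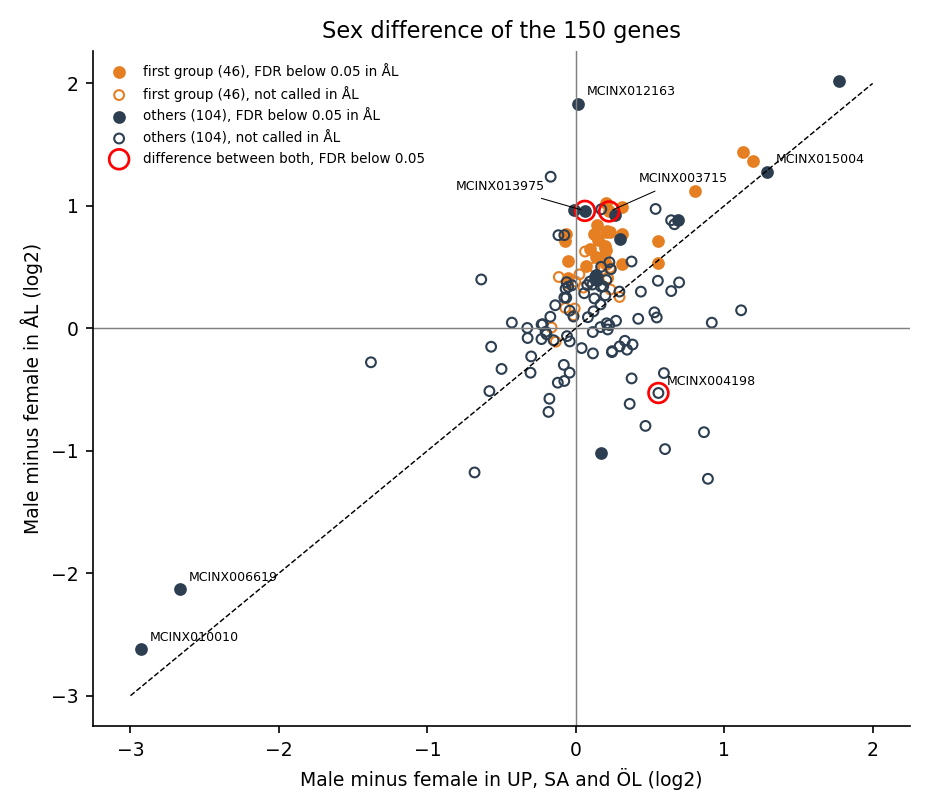
Male minus female log2 difference of the 150 genes in UP, SA and ÖL (x axis) and in ÅL (y axis), from the edgeR fit. Filled points are the 41 members called in ÅL, orange points the 46 genes of the largest group, and red rings the 3 members in which both differences depart from each other; most orange points lie above the dashed line of equality, at higher male levels in ÅL.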

How the data were processed

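Thorax RNA of 174 individuals was sequenced from poly-A anchored, strand-specific libraries. Only the 5′ end of each fragment was read. The submitters' processing notes name CASAVA 1.7, TopHat2 2.0.5 and edgeR. After quality and poly-A trimming and mapping to genomic scaffolds, raw counts per gene model were deposited for each individual. A second deposited table holds a normalized signal that the authors obtained with edgeR; TMM scaling recomputed from the raw counts gave the same 150 members. Population and sex came from the labels. The labels of 2 ÅL individuals differ in their last digit alone, and whether these share a family was not tested. Which of the 2 sequencing laboratories handled a library is not given in the sources used here.

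The rule was applied to log2(normalized count + 1). The members, gene lists and tests were chosen with earlier results of these data known. Gene identifiers are written as in the study's tables, from which descriptions were taken; the longest of them was read in part, so a member without a description may have one there. It lists genes that the study chose on these individuals. No identifier matched the RefSeq gene table, and no sequence is printed. Sex was tested on raw counts with edgeR 4.0.16 in R 4.3.3 (TMM, filterByExpr with a minimum count of 10, quasi-likelihood F-test with 1 mean per population and sex, Benjamini-Hochberg FDR<0.05); all 150 members passed the filter, and ± is the SE. Alternatives used DESeq2 1.42.0, limma 3.58.1, other pseudocounts, scalings, filters and subsets of individuals. The omission of the 10 ÅL libraries and of ÅL 5, ÅL 8 and UP 15, and the TMM factor as a covariate, were chosen after seeing the data. The steps were tested on simulated data. With 188 of 8427 genes changed by 1 on the log2 scale in ÅL males, the sex test in ÅL recovered 112 and made 11 false calls. The test of the difference recovered 90 of the 188 and made 2 false calls, so it missed many such changes. The test in UP, SA and ÖL made 0 false calls. Python 3.11.15 with pandas 2.3.3 and matplotlib 3.10.9 was used for the rest.

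Named genes are the 12 members with the largest gap, the 12 with the largest gap among those with an informative description, the members of the lists, the 4 with the smallest FDR for sex in ÅL in each direction, the members past the threshold for the difference of sex effects, and the 3 genes on each side of the limit. Other described genes, the members of the groups and those whose gap turned negative were named after their values were seen. The smallest chi-square per degree of freedom between 2 libraries of a population was 11.2, so no library was taken for a repeat of another.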

Additional observations from a re-analysis of the deposited data

Results flagged for a closer look

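In 3 members the difference between males and females in ÅL departed from that in UP, SA and ÖL by the test of that difference itself (edgeR quasi-likelihood F-test). The excess of the ÅL difference was 0.73 on the log2 scale for elongation factor 1 delta (MCINX003715), 0.90 for MCINX013975 and -1.08 for MCINX004198. The SE was 0.18, 0.23 and 0.25 in the same order. Each call was lost in limma-voom, those of MCINX003715 and MCINX013975 also without the 10 ÅL libraries set apart or with the TMM factor as a covariate, and that of MCINX004198 also without ÅL female 5. The difference of MCINX013975 stayed between 0.71 and 0.94 in all 11 alternatives, while that of MCINX003715 was 0.43 without the 10 libraries. What made these libraries differ was not tested.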

How the results depend on the processing

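Of the 150 members, 87 were chosen again with population medians, 78 in the 15 deepest individuals per population, 73 in the individuals outside that set, 81 in females alone, 95 in males alone, 93 with a minimum ÅL mean of 4 (which removes members below it) and 99 without the 10 ÅL libraries. The other alternatives kept between 116 and 150, and leaving out 1 individual kept between 140 and 150. Among 35 named genes, the gap turned negative for the cecropin gene MCINX012360 with medians (-0.039), and in males alone for lebocin 4 (-0.16) and neuroguidin (-0.072). Of the other members, MCINX000463 had a gap of -0.004 with medians. MCINX012163 had a gap of -0.33 in females alone and 1.22 in males alone. The cause was not tested. Of 525 gap values of 35 named genes under the alternatives, 25 values of 16 genes were at 0.5 or less of the value reported, 7 of them in females alone and 6 each with medians and without the 10 libraries.

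For sex in ÅL, 41 members were called, 24 at FDR<0.01, 27 without the 10 libraries, 22 with the TMM factor as a covariate and 21 with ÅL alone in the fit (141 members tested). For the other populations, 21 became 35 with the TMM factor, and without UP 15 the 4 members higher in females became 1. For the difference of the sex effects, 3 became 0 at FDR<0.01, 0 in limma-voom and 5 without the 3 individuals whose sex genes lay with the other sex. At an unadjusted p under 0.05, edgeR had 32 members and limma-voom 29. Without the 10 libraries edgeR called 4 members at FDR<0.05, with 0 further toward males. Without ÅL 5, ÅL 8 or UP 15 in turn, the ÅL count ran from 39 to 47, that of the other populations from 18 to 21 and that of the difference from 3 to 4. No paired analysis was possible because replicate numbers name individuals in order and the populations share none from the labels. Depth limits the low members: 63 of the 150 had no read in at least 1 of the 174 individuals.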
